A study of Mus musculus with 6 samples.

Results

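The mevalonate pathway enzymes were followed through liver RNA-seq counts of mice expressing wild-type or Y67F farnesoid X receptor (FXR). The 8 genes were taken by name, out of 23284 genes in the count tables, as the steps from acetoacetyl-CoA to farnesyl and geranylgeranyl diphosphate: Acat2, Hmgcs1, Mvk, Pmvk, Mvd, Idi1, Fdps and Ggps1. Of these, 7 had reads and were tested, and Hmgcs1 had none. No measured value entered the choice, although earlier results of these livers were known when the genes were picked.

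FXR is the nuclear receptor that senses bile acids, and Y67F-FXR is the mutant that carries Phe for Tyr at a site phosphorylated after FGF19 signalling. The comparison asks how liver mRNA differs when that Tyr cannot be phosphorylated. All 6 animals were male FXR-floxed mice, injected into the tail vein at 8 weeks of age with AAV8 that expressed Cre recombinase from the TBG promoter, which is liver specific. The same injection carried AAV8-TBG-FXR WT for the 3 FXR-WT mice and AAV8-TBG-Y67F-FXR for the 3 Y67F-FXR mice. After 4 weeks all mice received chow with 0.5% cholic acid for 6 h, so no group was free of Cre, transgene or cholic acid. The strain is not given in the sources used here. Each library came from 1 liver, and p-values set the difference between the groups against the variation between livers.

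The mevalonate pathway builds the isoprenoid unit from acetyl-CoA in the cytosol. Its product farnesyl diphosphate is the branch point to cholesterol through squalene, and to the lipid anchors of prenylated proteins, dolichol and ubiquinone. In liver the pathway supplies the cholesterol that is used for lipoproteins and bile acids, and its genes are textbook targets of the transcription factor SREBP-2, which is processed when membrane sterol is low.

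Library totals ranged from 19551113 to 22053320 reads. Values are given as CPM, counts scaled to a common library size with TMM factors (0.938 to 1.05), and as RPKM, the same per kilobase of exon, where genes are set against each other. Differences were tested with edgeR's quasi-likelihood test over 12453 genes. A call needed a p under 0.05 after Benjamini-Hochberg adjustment over these genes and a fold change over 1.5. By this rule 53 genes were called lower in Y67F-FXR livers and 68 higher, or 68 lower and 52 higher with scaling by library totals alone. mRNA levels of Nr1h4, the gene for FXR, were 186 ± 30.2 CPM in FXR-WT and 175 ± 9.84 CPM in Y67F-FXR livers (mean ± SD, n = 3, as throughout), with an adjusted p of 0.861. That count does not separate the floxed mouse gene from the transgene and checks no label. Of the 5 hepatocyte markers, Alb and Hnf4a averaged 71311 and 495 CPM in FXR-WT and 71807 and 474 CPM in Y67F-FXR livers. Fgb was lower in all Y67F-FXR livers than in any FXR-WT liver (log2 fold change -0.53, edgeR adjusted p 0.184). Cps1 and Arg1 had log2 fold changes of 0.46 and 0.29 with overlapping groups, and 0 of the 5 were called. Of the marker lists for other cell types, the 5 stellate cell markers were the list with separated sums, 33.9 to 58.6 CPM in FXR-WT against 23.3 to 29.3 CPM in Y67F-FXR livers, with 0 called and 3 at an unadjusted p under 0.05. Lrat, whose enzyme forms the retinyl esters that stellate cells store, was at 16.6 and 7.47 CPM on average (edgeR adjusted p 0.0540). The part of these markers in the results was not tested. Sums overlapped for Kupffer cell and leukocyte markers (102 to 155 against 82.0 to 215 CPM), cholangiocyte markers (9.29 to 13.9 against 12.0 to 12.2 CPM), endothelial markers (90.6 to 107 against 93.1 to 97.7 CPM) and erythroid markers (80.4 to 89.4 against 86.7 to 114 CPM), with 0 called, and no marker was at 0 in all livers. The endothelial list held 1 gene at an unadjusted p under 0.05 in edgeR's test, Lyve1, at 14.8 and 7.95 CPM on average without overlap (edgeR adjusted p 0.210). In bulk liver, fewer cells of a type and less RNA per cell cannot be told apart.

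None of the 7 tested mevalonate pathway enzymes passed the calling rule, against 0.426% of all tested genes called lower. Even so, 6 of them had lower values in all 3 Y67F-FXR livers than in any FXR-WT liver: Acat2, Mvk, Pmvk, Mvd, Idi1 and Fdps. Groups that separate in this direction were found in 10.5% of all tested genes. Those 6 genes also had an unadjusted p under 0.05, as did 6.67% of all tested genes in that direction. Ggps1, at the other branch of the pathway, had overlapping groups. The median log2 fold change of the 7 genes was -1.0015, with a range from -1.35 to 0.45, beside a median of 0.01 over all tested genes. An exact permutation test of 3 against 3 livers cannot go below a two-sided p of 0.1, so single genes were judged by the fit over all genes.

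**Figure D1:**
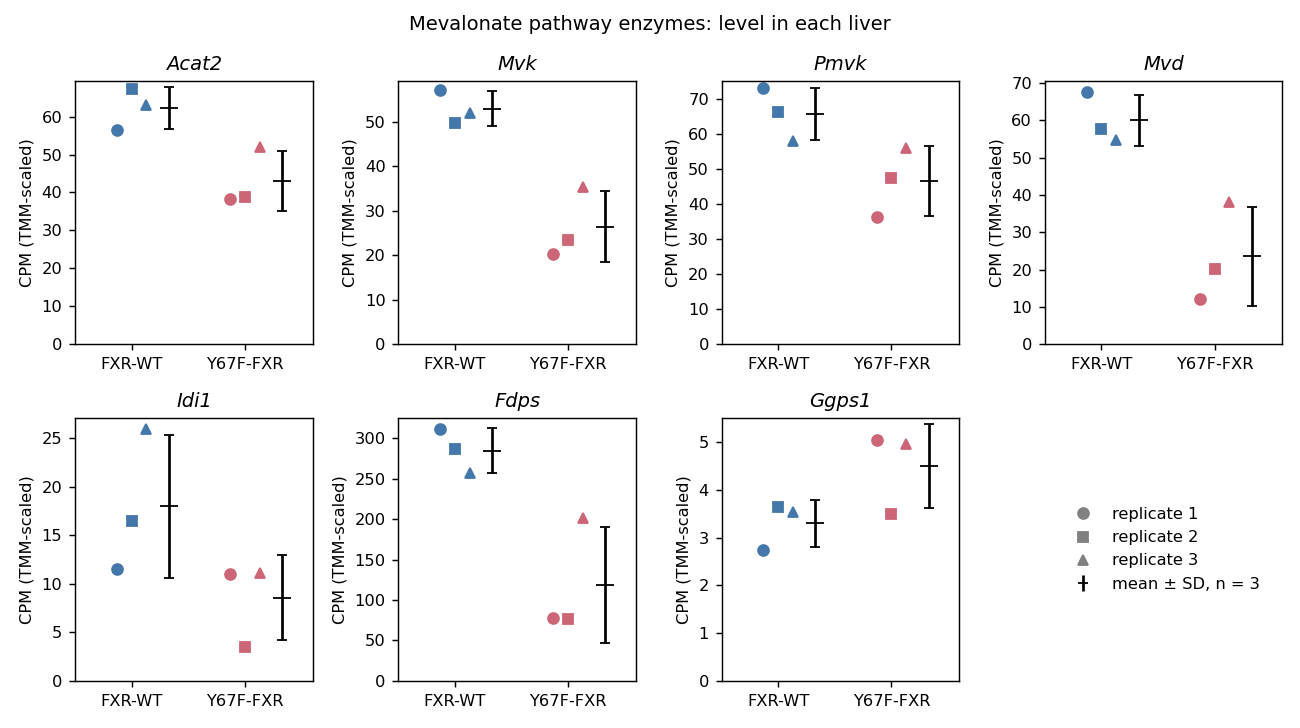
Level of the 7 detected mevalonate pathway enzymes in each liver, in TMM-scaled CPM on linear axes from 0. Symbols are replicates, and bars are the mean ± SD of 3 livers. In all panels but Ggps1 the 3 Y67F-FXR livers lie below the 3 FXR-WT livers, and replicate 3 of Y67F-FXR lies highest of its group, narrowly so for Idi1.

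Acat2 and Hmgcs1 encode the cytosolic enzymes of the first condensations, the acetoacetyl-CoA thiolase and HMG-CoA synthase. Acat2 (mm9 chromosome 17, 13135908 to 13153591, minus strand, 9 exons) was measured at 56.5, 67.3 and 63.0 CPM in the FXR-WT livers. In the Y67F-FXR livers it was 38.2, 38.7 and 52.1 CPM, so that the highest mutant liver lay just under the lowest FXR-WT liver. Mean levels were 62.3 ± 5.48 and 43.0 ± 7.86 CPM, a log2 fold change of -0.53 (SE 0.156, 95% confidence interval -0.89 to -0.17) with an edgeR adjusted p of 0.179. Acat2 lies next to Acat3, a near copy on the same strand. Of all 100-base windows of its longest GENCODE M21 transcript, 35.3% were also found in transcripts of Acat3 or Tcp1, so its count is uncertain where reads could come from either gene. Acat3 itself was measured at 78.4 ± 9.55 CPM in FXR-WT and 88.6 ± 10.7 CPM in Y67F-FXR livers (log2 fold change 0.18, edgeR adjusted p 0.685).

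Hmgcs1 was listed at 0 in all 6 libraries, and this 0 is not read as a level of its mRNA. The mm9 model used for counting placed the gene on the unlocalised scaffold chr13_random as 2 copies of the same 11 exons, at 114710 to 132325 and at 308620 to 326235, each exon displaced by exactly 193910 bases. Reads that align to several places were left out of the counts. All 60 genes of the count tables that lie on random scaffolds alone were at 0 in each liver. Hmgcs1 was therefore neither tested nor given a level.

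The Hmgcs1 promoter is shown because, of the 7 enzymes whose promoters were searched (all but Fdps), it alone held the core letters of the classical sterol regulatory element, the site at which SREBP proteins bind. This RefSeq sequence (GRCm38.p6, chr13:119690101-119690350, plus strand) covers the 250 bases before the start. Capitals mark matches to CCAAT on either strand and the match TCACCCCAC to the core TCACNCCAC, 137 bases before the start.
Hmgcs1: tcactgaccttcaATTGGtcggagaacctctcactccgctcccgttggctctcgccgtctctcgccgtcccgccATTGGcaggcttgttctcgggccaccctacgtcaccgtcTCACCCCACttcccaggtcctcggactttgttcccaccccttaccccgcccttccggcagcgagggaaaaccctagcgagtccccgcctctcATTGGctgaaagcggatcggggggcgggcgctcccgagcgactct

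Mvk, Pmvk and Mvd carry out 3 later steps, the phosphorylation of mevalonate by mevalonate kinase, the second phosphorylation by phosphomevalonate kinase, and the decarboxylation to isopentenyl diphosphate by mevalonate diphosphate decarboxylase. They are the members whose reads are easiest to place, since 0 of their 100-base windows were shared with another gene's transcripts.

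Mvk (mm9 chromosome 5, 114894315 to 114910599, plus strand, 11 exons) was the member nearest to the threshold. It was measured at 57.3, 49.6 and 51.9 CPM in FXR-WT and at 20.4, 23.5 and 35.5 CPM in Y67F-FXR livers. All mutant livers lay clear of the FXR-WT range. Mean levels were 52.9 ± 3.90 and 26.4 ± 7.98 CPM, 0.499 of FXR-WT by the fit, or a log2 fold change of -1.0015 (SE 0.207, 95% confidence interval -1.48 to -0.52). The edgeR adjusted p was 0.0825.

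Mvk shares its start region with Mmab, a cobalamin adenosyltransferase gene that reads away on the other strand from 279 bp off in the mm9 models. The exons of the pair do not overlap. Mmab was measured at 45.7, 60.9 and 65.0 CPM in FXR-WT and at 29.1, 24.2 and 43.0 CPM in Y67F-FXR livers, groups that again did not overlap. The log2 fold change was -0.83 (SE 0.231) with an edgeR adjusted p of 0.162, which is not a call. With DESeq2 Mmab was called lower, at an adjusted p of 0.0302, as were 1.59% of all genes it tested. The part of the Mvk promoter outside the Mmab exon (RefSeq, GRCm38.p6, chr5:114444061-114444268, plus strand) is shown because the starts of both genes flank it. It held 5 CCAAT matches on either strand, marked in capitals, the most among the 7 enzymes searched.
Mvk: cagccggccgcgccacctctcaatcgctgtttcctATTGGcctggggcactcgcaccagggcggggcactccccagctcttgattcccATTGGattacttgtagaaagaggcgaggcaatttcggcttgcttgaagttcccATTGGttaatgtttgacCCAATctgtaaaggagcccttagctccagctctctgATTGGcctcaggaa

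Pmvk (mm9 chromosome 3, 89263040 to 89272931, plus strand, 6 exons) showed the smallest difference of the separated genes. Its levels were 72.9, 66.2 and 58.0 CPM in FXR-WT and 36.2, 47.4 and 56.0 CPM in Y67F-FXR livers. The nearest livers of the groups were at 58.0 and 56.0 CPM. Means were 65.7 ± 7.45 and 46.5 ± 9.92 CPM, a log2 fold change of -0.50 (SE 0.178, 95% confidence interval -0.91 to -0.09), and the edgeR adjusted p was 0.268.

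Mvd (mm9 chromosome 8, 124957496 to 124967322, minus strand, 11 exons) had the lowest fitted ratio of the 7 genes. FXR-WT livers were at 67.6, 57.6 and 54.7 CPM. The Y67F-FXR livers were spread out at 12.2, 20.2 and 38.1 CPM, all of them under the FXR-WT livers. Mean levels of 59.96 ± 6.80 and 23.5 ± 13.3 CPM gave a log2 fold change of -1.35 (SE 0.359, 95% confidence interval -2.18 to -0.52), and with that spread the edgeR adjusted p was 0.147.

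Mvd too has a head-to-head partner, the non-coding model 9330133O14Rik, whose mm9 start lies 234 bp away. It was sparse, with 42, 38 and 40 reads in FXR-WT and 14, 24 and 24 reads in Y67F-FXR livers. The fit gave a log2 fold change of -0.84 (SE 0.298) and an edgeR adjusted p of 0.264. The Mvd promoter (RefSeq, GRCm38.p6, chr8:122443423-122443672, minus strand, printed in the direction of Mvd) is shown as the second such region, with its CCAAT matches in capitals.
Mvd: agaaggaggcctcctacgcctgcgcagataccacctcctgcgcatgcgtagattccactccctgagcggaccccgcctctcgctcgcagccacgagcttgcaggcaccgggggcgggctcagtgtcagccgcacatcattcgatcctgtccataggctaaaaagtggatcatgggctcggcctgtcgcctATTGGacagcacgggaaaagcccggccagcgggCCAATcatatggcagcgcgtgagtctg
The nearest neighbours were added to the account after the data were seen. Around the remaining members the nearest starts belonged to Pbxip1 beside Pmvk, Wdr37 beside Idi1, Rusc1 beside Fdps and Arid4b beside Ggps1, with log2 fold changes of 0.15, -0.19, -0.05 and 0.37, and none was called. Arid4b too lies head to head with its enzyme, its mm9 start 391 bp away, and Wdr37 does so from 13876 bp away.

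Idi1 encodes isopentenyl diphosphate isomerase, and Fdps joins the isoprenoid units to farnesyl diphosphate. Idi1 (mm9 chromosome 13, 8884852 to 8891642, plus strand, 5 exons) was the member with the widest spread in both groups on the log2 scale. It was measured at 11.5, 16.5 and 26.0 CPM in FXR-WT and at 11.0, 3.49 and 11.2 CPM in Y67F-FXR livers. The groups were separated by less than 1 CPM, at 11.5 and 11.2 CPM, and replicate 2 of Y67F-FXR stood far under the rest. Means were 18.0 ± 7.38 and 8.56 ± 4.39 CPM, with a log2 fold change of -1.07 (SE 0.444, 95% confidence interval -2.09 to -0.04) and an edgeR adjusted p of 0.351. Reads of Idi1 may be shared with Gm13502, Gm35570 and Gm48574, which held 27.6% of its 100-base windows.

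Fdps (mm9 chromosome 3, 88897510 to 88905889, minus strand, 11 exons) was the most abundant of the 7 enzymes with reads. FXR-WT livers were at 311, 286 and 257 CPM. Y67F-FXR replicates 1 and 2 were nearly equal, at 77.8 and 77.0 CPM, whereas replicate 3 was at 202 CPM, still under every FXR-WT liver. The means of 285 ± 27.4 and 119 ± 71.7 CPM gave a log2 fold change of -1.26 (SE 0.362, 95% confidence interval -2.10 to -0.43) and an edgeR adjusted p of 0.171. Without Y67F-FXR replicate 3 the log2 fold change of Fdps was -1.87 and its edgeR adjusted p was 0.0230, which is a call, where 0.135% of all genes tested in that fit were called lower. Of its 100-base windows 75.8% also lay in transcripts of Gm3571, Gm43738 or Gm5873, so its level is uncertain to the extent that such reads were left out or placed elsewhere.

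Ggps1 encodes the synthase of geranylgeranyl diphosphate, the lipid that anchors Rab proteins in membranes. It lies on mm9 chromosome 13 at 14144714 to 14155668 (minus strand, 4 exons). Its levels were 2.74, 3.64 and 3.54 CPM in FXR-WT and 5.05, 3.49 and 4.96 CPM in Y67F-FXR livers. Mutant replicates 1 and 3 lay above the FXR-WT livers and replicate 2 lay within their range. The mean was 3.31 ± 0.494 CPM in FXR-WT and 4.50 ± 0.878 CPM in Y67F-FXR livers, 1.36-fold by the fit (95% confidence interval 0.953 to 1.95), and the edgeR adjusted p was 0.450. These levels rest on 56 to 104 reads a library. Of the 100-base windows of Ggps1, 5.3% were also found in transcripts of Arid4b or Gm5630.

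**Figure D2:**
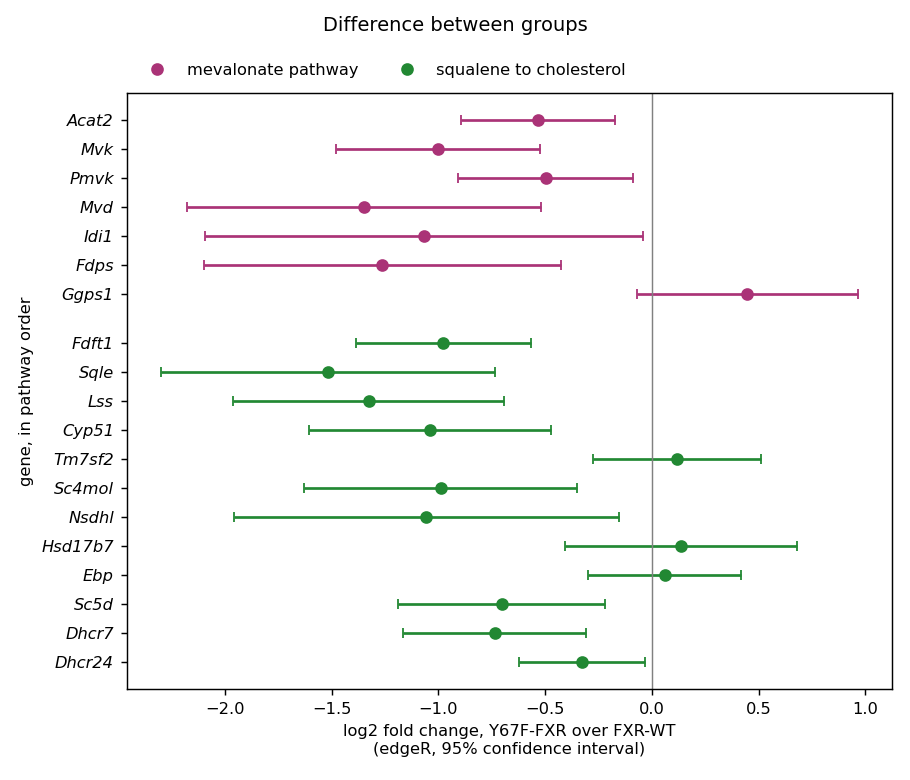
Log2 fold change of each gene, Y67F-FXR over FXR-WT, with its 95% confidence interval from edgeR, for the 7 mevalonate pathway enzymes and the 12 enzymes from squalene to cholesterol in pathway order. The intervals of 6 mevalonate enzymes lie below 0, and that of Ggps1 spans 0.

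Per kilobase of exon, Fdps stood far above the other enzymes in FXR-WT livers, at 195 ± 18.8 RPKM. Pmvk followed with a level of 43.6 ± 4.95 RPKM. Mvd at 32.2 ± 3.65, Mvk at 31.9 ± 2.35 and Acat2 at 30.0 ± 2.64 RPKM did not differ beyond their spread. Idi1 at 6.28 ± 2.57 RPKM and Ggps1 at 1.395 ± 0.208 RPKM closed the order. In Y67F-FXR livers the same genes were first, second, sixth and seventh, with Fdps at 81.3 ± 49.1, Pmvk at 30.9 ± 6.59, Idi1 at 2.99 ± 1.53 and Ggps1 at 1.90 ± 0.370 RPKM. Between them Acat2 at 20.7 ± 3.79 RPKM now stood above Mvk at 15.9 ± 4.81 and Mvd at 12.6 ± 7.11 RPKM, but the spreads of these 3 genes overlapped.

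The livers of the Y67F-FXR group were unlike each other in these genes. As a percentage of the FXR-WT mean, Mvd was at 20.3, 33.8 and 63.5% in Y67F-FXR replicates 1, 2 and 3. Mvk was at 38.5, 44.3 and 66.99%, and Fdps at 27.3, 27.0 and 70.8%. Replicate 3 was thus nearest to FXR-WT for each. Pmvk stood at 55.1, 72.1 and 85.2%, Acat2 at 61.3, 62.2 and 83.6%, and Idi1 at 61.3, 19.4 and 62.1%. For Ggps1 the values were 152.9, 105.6 and 150.2%.

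Replicate 3 was the highest liver of its group in 6 of the 7 enzymes, whereas it was the highest in 23.1% of all tested genes and in 41% of the 824 other genes with a lower level at an unadjusted p under 0.05. Averaged over the 7 enzymes, the log2 difference from the FXR-WT mean was -1.01 in replicate 1, -1.13 in replicate 2 and -0.32 in replicate 3. The 3 FXR-WT livers lay between -0.05 and 0.04. Over the 12 enzymes from squalene to cholesterol the corresponding averages were -0.90, -1.02 and -0.31, again with replicate 3 nearest to FXR-WT. The SD of log2 levels was larger among mutant than among FXR-WT livers for 7 of 7 mevalonate enzymes, and for 55.9% of all tested genes. Its median over the enzymes was 0.41 in Y67F-FXR and 0.16 in FXR-WT livers, beside 0.23 and 0.21 over all tested genes.

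**Figure D3:**
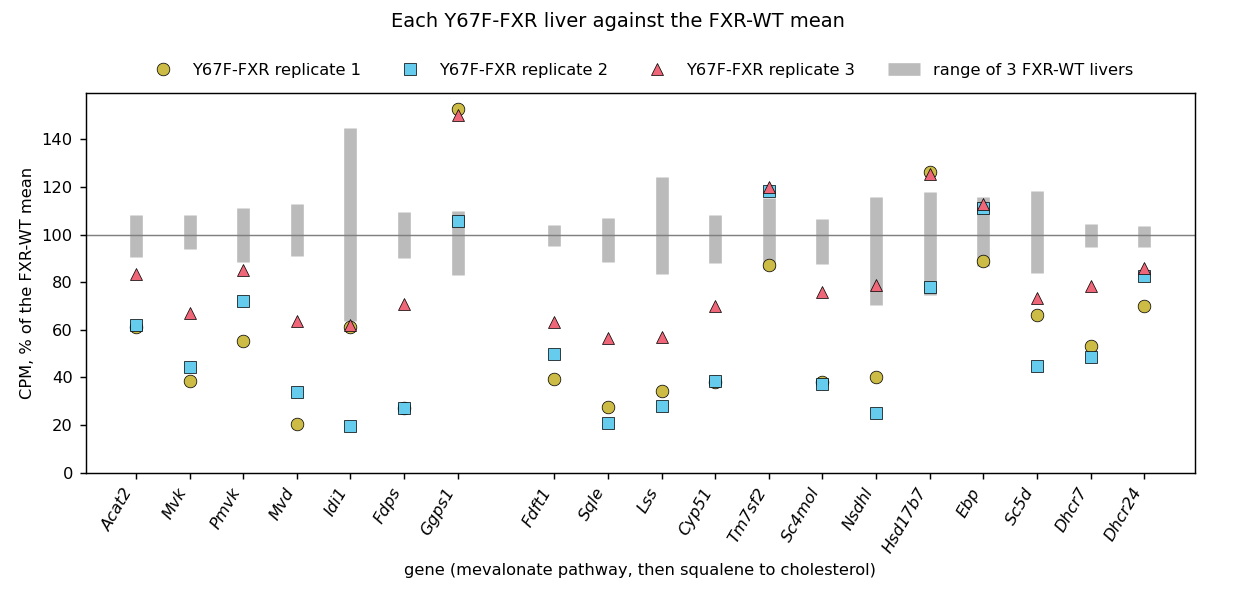
Level of each enzyme in the 3 Y67F-FXR livers as a percentage of the FXR-WT mean, with grey bars for the range of the 3 FXR-WT livers. Mevalonate pathway enzymes are on the left and the enzymes from squalene to cholesterol on the right. The triangles of replicate 3 lie above circles and squares in most genes, and the circle of Fdps is hidden behind its square (27.3 and 27.0%).

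The enzymes that follow on farnesyl diphosphate in cholesterol synthesis had values like those of the mevalonate pathway. Of 12 genes, 9 had a lower fitted level at an unadjusted p under 0.05 in edgeR's test, against 6.67% of all tested genes, and 0 were called, against 0.426%. DESeq2 called 6 of them lower (Fdft1, Sqle, Lss, Cyp51, Sc4mol and Dhcr7), where it called 1.59% of all genes it tested. The median log2 fold change of the 12 genes in edgeR was -0.86. Fdft1, the squalene synthase that draws on the same substrate as Ggps1, was measured at 283, 308 and 299 CPM in FXR-WT and at 117, 147 and 188 CPM in the mutant livers. The fit gave a log2 fold change of -0.98 (SE 0.177) with an edgeR adjusted p of 0.0547. Fdft1 was called with library totals (edgeR adjusted p 0.0377), without a filter (0.0372), with gene length offsets (0.0270) and with limma-voom (adjusted p 0.0497). For Lss, lanosterol synthase, the log2 fold change was -1.33 (edgeR adjusted p 0.0829). Sqle, the squalene epoxidase, had -1.52 (edgeR adjusted p 0.0969). Lss was called without a filter (edgeR adjusted p 0.0485) and with gene length offsets (0.0369). Without Y67F-FXR replicate 3, Sqle, Cyp51 and Sc4mol were called, at edgeR adjusted p values of 0.0291, 0.0445 and 0.0446. In that fit 0.135% of all tested genes were called lower. Tm7sf2, Hsd17b7 and Ebp, later enzymes of the same route, had log2 fold changes of 0.12, 0.14 and 0.06, the last of which was -0.01 with scaling by library totals.

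Genes of routes that make or use the same intermediates were not called. Acly, Acss2 and Slc25a1, which provide cytosolic acetyl-CoA, had log2 fold changes of -0.10, -0.05 and 0.26. For 11 genes of protein prenylation the median was 0.01, with none at an unadjusted p under 0.05, and those with the smallest p were Fntb at -0.32, Rabggtb at 0.20 and Rabggta at -0.19. Among 7 genes of the dolichol and ubiquinone branch the median was -0.18, again with none at an unadjusted p under 0.05, and Pdss2, Nus1 and Pdss1 had log2 fold changes of -0.25, -0.18 and -0.33. For 5 mitochondrial and peroxisomal enzymes of acetoacetyl-CoA and HMG-CoA the median was 0.39. All 5 were fitted higher, as were 6474 of the 12453 tested genes. Of the 5, 3 had an unadjusted p under 0.05 in edgeR's test, as did 840 of all tested genes in that direction. Among them Acaa1a, a peroxisomal thiolase of fatty acid oxidation, had a log2 fold change of 0.58 (SE 0.180, edgeR adjusted p 0.202).

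Among 8 genes of the machinery that processes SREBP proteins, Insig2 was the call of the reported edgeR test. It was also the single call of that test among the 46 genes of the pathway lists beside the enzymes, where DESeq2 called 8. Insig2 encodes an endoplasmic reticulum protein that holds SCAP and SREBP in place when sterol is high. It was measured at 61.5, 65.0 and 67.2 CPM in FXR-WT and at 134, 135 and 106 CPM in Y67F-FXR livers, so that it rose in all 3 mutant livers. The log2 fold change was 0.95 (SE 0.134) and the edgeR adjusted p 0.0244, where 0.546% of all tested genes were called higher. Insig2 lost this call with any 1 of the 6 livers left out, at edgeR adjusted p values from 0.0537 to 0.105, with log2 fold changes from 0.88 to 1.07.

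Insig1, the related gene that is itself a textbook SREBP target, lay on the other side. Its levels were 171, 205 and 200 CPM in FXR-WT and 92.2, 73.9 and 139 CPM in Y67F-FXR livers, without overlap. The log2 fold change was -0.92 (SE 0.225) with an edgeR adjusted p of 0.124. With DESeq2 Insig1 was called lower, at an adjusted p of 0.0072, as were 1.59% of all genes it tested. Scap had a log2 fold change of 0.32 (edgeR adjusted p 0.298). Srebf2, the gene for SREBP-2, had -0.23 (edgeR adjusted p 0.596), and Srebf1 had -0.48 (edgeR adjusted p 0.389).

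To find genes with the most similar course over the 6 livers, the log2 level of each gene was centred on its own mean and set against the average of the 7 enzymes, as a root mean square difference. The measure includes the difference between the groups, so a gene with a like fold change can come near by that alone. The median over 11507 genes averaging 1 CPM or more was 0.53. The 10 nearest were Tspan18 at 0.08, Dhcr7 at 0.08, Insig1 at 0.11, Zbtb12 at 0.14, Mmab at 0.14, Ces3b at 0.15, Klhdc8a at 0.15, Rdh11 at 0.15, Mapkapk3 at 0.15 and Cyp51 at 0.16. Dhcr7 and Cyp51 are enzymes of the later cholesterol route. Dhcr7 was measured at 113, 103 and 110 CPM in FXR-WT and at 57.8, 52.6 and 84.9 CPM in Y67F-FXR livers, and Cyp51 at 237, 292 and 279 CPM against 102, 103 and 188 CPM. Tspan18 was low, at 1.82 ± 0.145 and 0.97 ± 0.325 CPM. With values centred within each group instead, the 10 nearest genes ranged from 0.07 for Ces3b to 0.14 for Mmab. By the first measure the enzymes themselves ranged from 0.17 for Mvk to 0.67 for Ggps1. Both Ggps1 and Idi1, at 0.56, lay beyond the median over all genes compared. With 1 liver left out, between 3 and 9 of these 10 genes were again among the nearest 10.

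Promoter windows were found in RefSeq for 7 of the 8 enzymes, all but Fdps, with 8 windows in all, and searched over the 250 bases before each start on both strands. CCAAT, the letters bound by NF-Y, was present in 6 of 7 genes, all but Acat2, and in 33.85% of all 32851 mouse windows. After the 5 matches of Mvk came 3 each in Hmgcs1 and Ggps1, 2 each in Mvd and Idi1 and 1 in Pmvk. The GC box GGGCGG, bound by Sp1, was present in Acat2, Hmgcs1, Idi1, Mvd and Mvk, and in 32.74% of all windows. The sterol regulatory element core was found in Hmgcs1 and in 1.05% of all windows. AGGTCA, the half-site of nuclear receptors such as FXR, was found in Hmgcs1 and in 14.02% of all windows. CACGTG was in 0 of the members' windows and in 6.02% of all. No 2 of these matches in the enzymes shared bases.

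How near the enzymes came to the calling rule depended on the test. With DESeq2 3 of the 7 were called lower, as were 1.59% of all genes it tested, Mvk at an adjusted p of 0.0011, Mvd at 0.00623 and Fdps at 0.0123. DESeq2 called 420 genes in all, where edgeR called 121. With offsets for gene length per library Mvk was called, at an edgeR adjusted p of 0.0379, where 0.996% of all tested genes were called lower. Gene length moved with the libraries. The median log2 deviation of the shortest 20% of genes from their means over the livers was 0.20 in FXR-WT replicate 1 and -0.18 in replicate 3, and -0.20 and 0.22 in Y67F-FXR replicates 1 and 2. Its part in the results was not tested beyond these offsets. In every alternative that was run, 6 of the 7 enzymes had a fitted level below FXR-WT and Ggps1 above it, where 48% of all tested genes were fitted lower by the reported test.

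**Figure D4:**
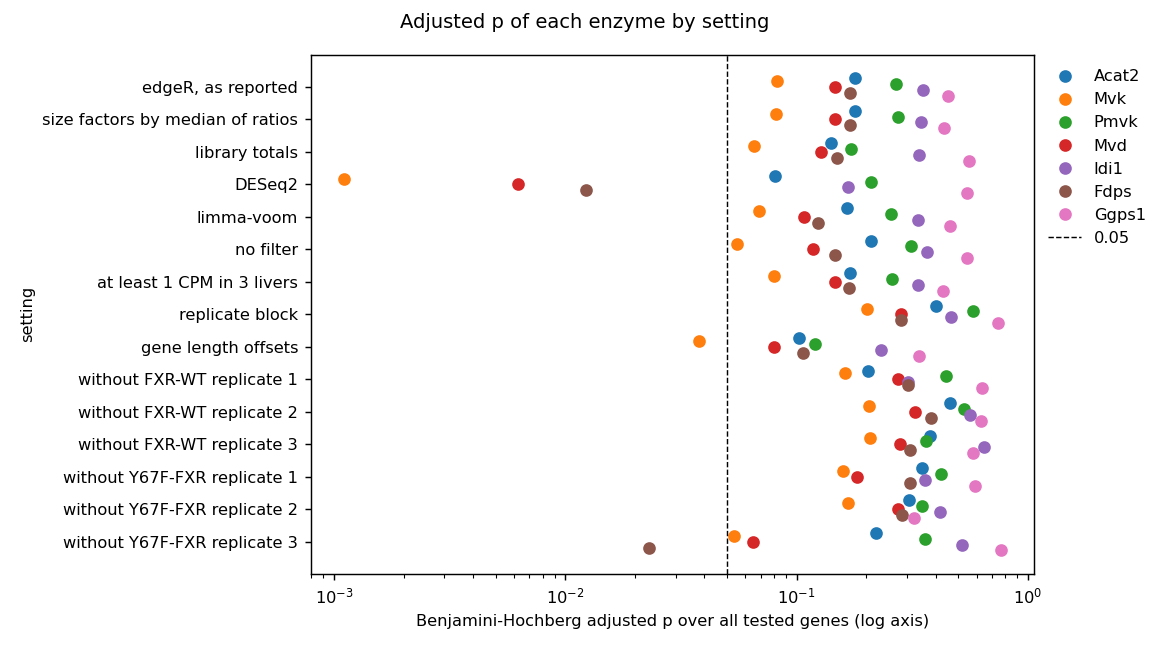
Benjamini-Hochberg adjusted p of the 7 enzymes over all tested genes, on a log axis, for the reported edgeR test in the top row and for the alternatives below it. Points left of the dashed line at 0.05 are Mvk, Mvd and Fdps with DESeq2, Mvk with gene length offsets, and Fdps without Y67F-FXR replicate 3.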

How the data were processed

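The authors deposited raw counts of reads per gene for 3 FXR-WT and 3 Y67F-FXR livers. Per the labels and file headers, reads were trimmed with Trimmomatic 0.36, aligned to mm9 with STAR (2.5.3a in the submitters' processing notes) and counted with featureCounts 1.4.6-p4 on UCSC gene models, without strand, with the reads of a pair counted singly and without reads on several places or genes. A table of the authors' own comparison (log2 fold changes, p-values and false discovery rates) was not used. The study's legend gives more mice per group than the 3 sequenced here.

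Genes with low counts were removed with filterByExpr, and the rest were scaled with TMM and fitted together with glmQLFit and glmQLFTest of edgeR 4.0.16 in R 4.3.3. Alternatives used DESeq2 1.42.0, limma 3.58.1 (voom), other scalings and filters, gene length offsets, a replicate block and leaving out each liver. Fits were tested on simulated counts, on which false calls stayed under the threshold share with edgeR's reported test and exceeded it with DESeq2. Replicate libraries differed from each other beyond counting noise. RPKM used the exon lengths of the count tables. Coordinates of genes are mm9, while promoters and read windows are GRCm38, and the builds were not mixed.

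The enzymes, pathway lists and markers were chosen with earlier results of these data known. Named genes are the enzymes, the 3 genes of smallest p and any called gene of each pathway list, the 10 genes of most similar course, Nr1h4, and genes that neighbour an enzyme or share its sequence. Some genes of the lists' pathways are not reported here.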

Additional observations from a re-analysis of the deposited data

How the results depend on the processing

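No enzyme of the mevalonate pathway changed direction under any alternative that was run. Of the other genes with a printed fold change, 7 changed sign with a liver left out, over ranges of log2 fold change from -0.044 to 0.32 for Hsd17b7, -0.031 to 0.17 for Ebp, -0.21 to 0.013 for Acly, -0.11 to 0.0084 for Acss2, -0.021 to 0.27 for Pbxip1, -0.22 to 0.20 for Rusc1 and -0.0010 to 0.60 for Arid4b. Ebp was also at -0.011 with library totals. The count of enzymes called, 0 in the reported test, was 3 with DESeq2 and 1 with gene length offsets, and from 0 to 1 with each liver left out. It was 0 with library totals, limma-voom, both other filters and a replicate block. All genes called numbered 420 with DESeq2, 247 with gene length offsets and 8 with the replicate block, and 9 to 66 with each liver left out, against 121. Calls among the 46 genes of the other pathway lists numbered 2 with library totals, 8 with DESeq2, 2 with limma-voom, 3 without a filter, 0 with the replicate block, 3 with gene length offsets and 0 to 3 with each liver left out, against 1. Library totals moved the median of all genes by -0.07 and gave 68 genes called lower and 52 higher, where TMM scaling gave 53 and 68. Genes of most similar course shared with the reported 10 numbered 3 to 9 with each liver left out. The causes were not tested. Replicate numbers are not said to pair the livers. Deviations of same-numbered livers correlated at -0.52, -0.08 and 0.12. Those of FXR-WT replicate 3 with Y67F-FXR replicate 1 correlated at 0.58, and of FXR-WT replicate 1 with Y67F-FXR replicate 2 at 0.54. With 3 livers in each group, centred on their own mean, these values cannot settle a pairing, so the replicate block is given as a count alone. Pmvk and Acat2 were not called in any alternative, and their reported folds lie under the 1.5-fold minimum of the rule.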
